A study of Homo sapiens and Mus musculus with 36 samples.

Results

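The DOT1L genotype by interferon comparison in HuH-7 cells uses all 12 guide libraries of that line, of 36 libraries in the series. HuH-7 is an established human hepatocellular carcinoma line. The libraries were chosen by their labels alone. They form 4 settings. Cells with the control guide sgNeg2, labelled WT, were sequenced without IFN (2 libraries) and with IFN (2 libraries). Cells labelled DOT1L_KO, made with the guide DOT1L_sgRNA#1 or DOT1L_sgRNA#2 (called sg1 and sg2), were sequenced without IFN (2 libraries per guide) and with IFN (2 libraries per guide), so that each knockout setting has 4 libraries. All of them are HuH-7 cells carrying a guide. The sources used here do not give the type of interferon, its dose or its duration, nor whether a guide line is a single clone. No label says that replicates came from separate cultures, so the p-values reflect the spread between these libraries only, and that spread may be technical.

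DOT1L is the enzyme that methylates lysine 79 of histone H3, a mark found along the bodies of transcribed genes. Interferons bind surface receptors and act through JAK kinases and STAT transcription factors. Type I interferon drives genes with an interferon-stimulated response element through the ISGF3 complex, and interferon gamma drives genes with a gamma-activated site. The quantity of interest was the interaction: the log2 response to IFN in knockout cells minus the log2 response in sgNeg2 cells. It equals the knockout effect with IFN minus the knockout effect without IFN. A negative value for an induced gene can therefore come from a level that was already higher without IFN (a basal difference), from a lower level under IFN, or from both, and these were separated gene by gene.

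The target itself was lower in the knockout libraries. DOT1L (chr19:2164149-2232578, hg38) was at 75.5 and 73.1 CPM in the sgNeg2 libraries without IFN and at 32.1 to 40.4 CPM in the 4 knockout libraries. With IFN it was at 108 and 109 CPM in sgNeg2 and at 42.5 to 66.8 CPM in the knockout libraries. The groups did not overlap in either state, and part of the DOT1L RNA remained. The interaction of DOT1L was 0.09 ± 0.23 on the log2 scale (SE, adjusted p = 0.913), and its sign changed between alternatives.

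The libraries with and without IFN were not of one kind. Total counts were 19580588 to 22649969 without IFN and 47594968 to 61227426 with IFN. Histone genes took 0.827 to 1% of counts without IFN and 0.0329 to 0.0472% with IFN, and small RNA genes took 3.24 to 5.9% and 0.0102 to 0.0118%. With so many genes differing between the kinds of library (67.8% of genes tested were called for IFN against none in sgNeg2, 33% higher and 34.7% lower, and 78.6% in knockout, 36.4% higher and 42.2% lower), treatment and kind of library cannot be told apart for a response to IFN within a genotype. A factor that a gene shares in both genotypes drops out of the interaction. The words raised and lowered by IFN below describe these library sets. The 2 sg2 libraries without IFN differed from each other more than any other pair (chi-square per degree of freedom over genes 24.7, against 2.81 to 7.53 elsewhere). All 8 hepatocyte markers were detected in every setting, with a summed level of 14200 CPM in sgNeg2 and 11800 to 13600 CPM in knockout without IFN, and 6150 to 6200 CPM and 5250 to 6170 CPM with IFN. APOB made up most of this fall, from 9250 to 1430 CPM in sgNeg2 and from 8440 to 1250 CPM in knockout. In sgNeg2, APOA1, TTR, SERPINA1 and FGB also fell with IFN, and HNF4A was at 354 and then 342 CPM. ALB (2990 to 3350 CPM) and AFP (330 to 365 CPM) rose. Leukocyte markers summed to 3.57 to 6.84 CPM over all libraries, with PTPRC listed at 0 in every setting, and fibroblast markers to at most 1.16 CPM. Of the 3 endothelial markers, PECAM1 made up nearly all of the signal, at 8.86 CPM in sgNeg2 and 16.4 CPM in knockout without IFN and 3.74 and 7.68 CPM with IFN, while CDH5 was listed at 0 with IFN. The part of these differences in the results was not tested.

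Few genes were called for a different IFN response in knockout cells by edgeR with both guides pooled. That fit counts a difference between the guides as spread. Of 16448 genes tested, 83 were called in the interaction at an adjusted p below 0.05 (0.505%), 34 higher (0.207%) and 49 lower (0.298%). The same fit called 1863 genes (11.3%) for knockout against sgNeg2 without IFN, 6.95% higher and 4.38% lower, and 2037 (12.4%) with IFN, 7.11% higher and 5.27% lower. All 83 had the same sign with each guide taken apart, and 73 had a mean of at least 5 CPM. Equal signs were favoured in advance, since a difference between guides counts as spread and both guides share the sgNeg2 libraries. They are therefore no test of agreement between the guides. At an unadjusted p below 0.05 there were 733 higher (4.46%) and 1381 lower (8.4%) genes. The SE of the interaction had a median of 0.209 on the log2 scale.

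The number and its balance depended on the fit, on single libraries and on the scaling. With edgeR and guides as groups the number was 1441, and with DESeq2 it was 409. The counts that follow are for edgeR with the guides pooled. The count was 30 without sgNeg2 replicate 1, 19 without sgNeg2 replicate 2, 48 without either sg1 replicate, 30 without either IFN-treated sgNeg2 replicate and 176 without IFN-treated sg1 replicate 1. Without either of the 2 dissimilar sg2 libraries it was 58 (replicate 1) and 88 (replicate 2). Lower calls were 59% of calls with TMM scaling, 44% with RLE scaling and 24.3% with TMM after histone and small RNA genes had been left out, as the median over all genes moved from -0.03 to 0.02 and 0.07. A set of 14 genes was called in each of 23 alternative fits: BST2, ENTPD1, C1S, FGA, FGB, FGG, LBP, BMF, DKK1, AKR1C1, NYNRIN, IL1R1, ITIH5 and KCNQ1OT1.

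By label, most calls were responses that shrank. The interaction subtracts the sgNeg2 response that also sets this label, so spread in the sgNeg2 libraries favours a smaller response. The balance of smaller and larger responses was therefore not tested. Of the 83 genes, 28 were raised by IFN in sgNeg2 and rose less, or fell, in knockout, and 30 were lowered by IFN in sgNeg2 and fell less, or rose, in knockout. A larger response was found for 16 genes, 3 of them raised and 13 lowered. The remaining 9 had no called IFN response in sgNeg2. Among the 28 raised genes, 17 were called for knockout only without IFN (the basal class), 9 in both states and 2 only with IFN. Among the 30 lowered genes the split was 3, 12 and 15. The share of the interaction that lay in the knockout effect without IFN had a median of 1.12 for the raised genes and 0.08 for the lowered genes. These are descriptions, since the 3 quantities share libraries, and the raised split rested on the call threshold: with unadjusted p-values for the knockout effects it was 11 basal and 17 with a different level under IFN.

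**Figure D1:**
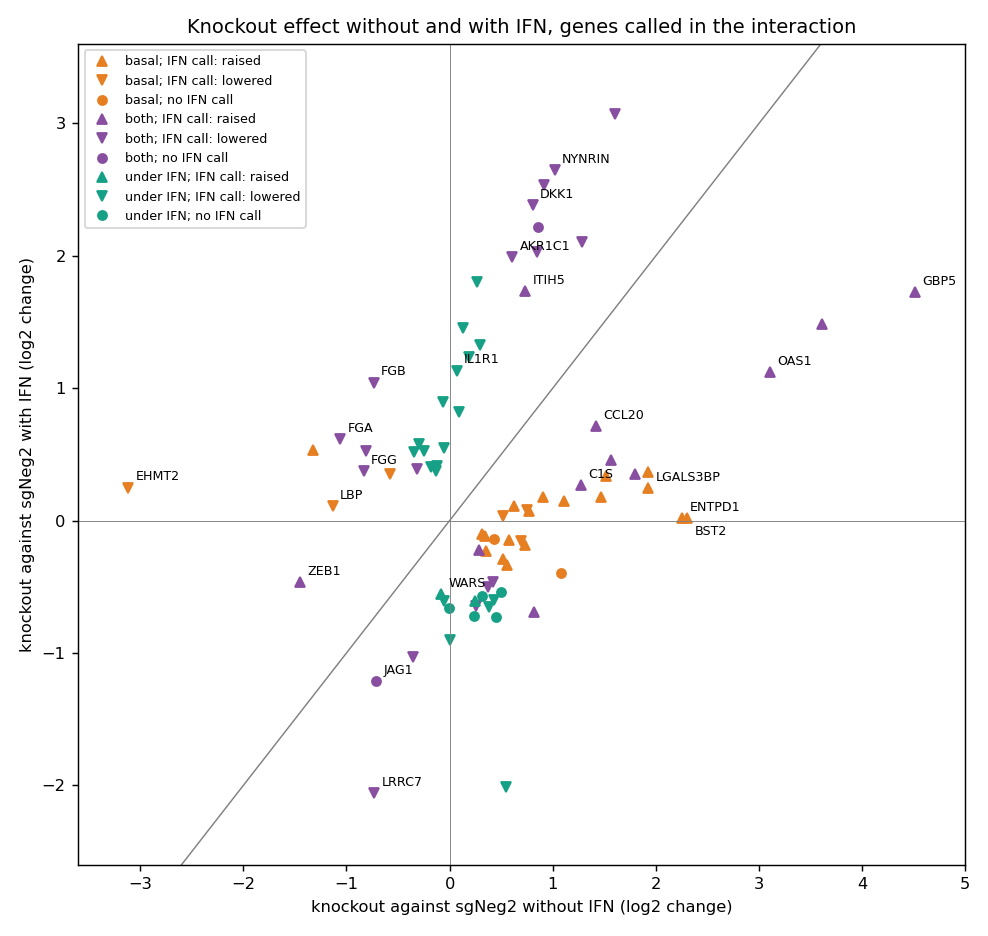
Knockout against sgNeg2 without IFN (x, log2) and with IFN (y, log2) for 82 of the 83 genes called in the interaction (the other one lies off the scale and is not drawn). Colour gives the class (basal, both states, under IFN only) and the symbol whether IFN raised or lowered the gene in sgNeg2. Equal effects lie on the diagonal; basal genes such as BST2 and ENTPD1 lie near 0 on y, and NYNRIN, DKK1 and AKR1C1 lie above the diagonal.

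Among the 17 raised genes of the basal class, BST2 and ENTPD1 had the interactions farthest from 0. In knockout cells without IFN both were several-fold above sgNeg2, and with IFN the knockout libraries lay on both sides of sgNeg2. BST2, which tethers budding virus to the cell surface, was at 1.68 and 1.02 CPM in sgNeg2 without IFN and at 6.77, 6.25, 6.92 and 6.79 CPM in knockout (sg1 then sg2). With IFN it was at 242 and 232 CPM in sgNeg2 and at 208, 219, 259 and 274 CPM in knockout. Every knockout library was above both sgNeg2 libraries without IFN, and with IFN the sg1 libraries lay below and the sg2 libraries above them. The knockout effect was 2.31 ± 0.20 without IFN (adjusted p = 1.1e-05) and 0.02 ± 0.11 with IFN (95% interval -0.23 to 0.26), and the interaction was -2.29 ± 0.23 (adjusted p = 0.00053). ENTPD1, the ectonucleotidase CD39, which degrades extracellular ATP, showed the same form: 2.50 and 2.43 CPM in sgNeg2 and 11.3, 11.7, 10.6 and 13.5 CPM in knockout without IFN, then 42.4 and 41.6 CPM against 45.4, 46.2, 38.3 and 40.4 CPM with IFN. Its knockout libraries again bracketed sgNeg2 under IFN. The interaction of ENTPD1 was -2.23 ± 0.17 (adjusted p = 0.00014), with a knockout effect of 0.02 ± 0.10 under IFN.

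Since STAT factors carry the interferon signal to promoters, the 250 bases upstream of the start are shown for BST2 and for OAS1, a gene described below that differed in both states (RefSeq, GRCh38.p14, gene strand, 5′ to 3′). Capitals mark every match, on either strand, to TTCNNNGAA (the core letters of a gamma-activated site) or CTGGGAA (letters of an interleukin-6 response element). The interferon-stimulated response element is not among the marked motifs, so the capitals do not show whether it is present. In BST2 a match of each kind overlaps.
BST2 (chr19:17405631-17405880, minus strand): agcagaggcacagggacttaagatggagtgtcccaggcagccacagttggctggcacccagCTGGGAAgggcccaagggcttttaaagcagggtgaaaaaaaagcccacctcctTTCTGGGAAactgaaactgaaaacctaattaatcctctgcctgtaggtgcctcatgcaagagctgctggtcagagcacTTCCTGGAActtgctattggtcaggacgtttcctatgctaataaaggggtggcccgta
OAS1 (chr12:112906712-112906961, plus strand): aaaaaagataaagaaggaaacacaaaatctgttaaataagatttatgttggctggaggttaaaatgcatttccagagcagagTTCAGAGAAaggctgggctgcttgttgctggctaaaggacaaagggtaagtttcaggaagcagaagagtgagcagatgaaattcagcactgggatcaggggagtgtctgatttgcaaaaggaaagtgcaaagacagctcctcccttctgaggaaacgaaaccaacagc
Of the 28 raised genes with a smaller response, 20 had an entry in the promoter table. TTCNNNGAA was present in 4 of these 20 (20%: BST2, OAS1, DDX60 and GBP3) and in 5.85% of the 11443 tested genes with an entry. CTGGGAA was present in 2 of the 20 (10%: BST2 and LINC01116) and in 9.74% of the tested genes. The windows end at RefSeq starts. By GENCODE positions that of BST2 runs a short way into its gene. Most of the OAS1 window lies inside its gene, which starts at 112906777 by GENCODE, and so does the marked OAS1 match. A match describes letters in this window only.

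The other interferon-stimulated members of the basal class ran the same way at smaller size. LGALS3BP, a secreted galectin-3 ligand, rose from 7.32 and 6.39 CPM to 373 and 374 CPM with IFN in sgNeg2. In knockout it started at 22.6 to 28.5 CPM and reached 363 and 377 CPM with sg1 but 502 and 526 CPM with sg2. Its interaction was -1.69 ± 0.22 (adjusted p = 0.0033). DDX60, a helicase that assists RNA sensing, had an interaction of -1.56 ± 0.25 (adjusted p = 0.016), SP100, a nuclear body protein, -1.28 ± 0.19 (adjusted p = 0.0073), and CASP1, the inflammasome protease, -1.17 ± 0.22 (adjusted p = 0.032). GBP1, a guanylate-binding protein that attacks intracellular pathogens, was at 8.36 and 7.28 CPM in sgNeg2 and 15.1 to 19.5 CPM in knockout without IFN, and at 790 and 796 CPM against 822 to 934 CPM with IFN. All its knockout libraries were above sgNeg2 in both states, yet the effect under IFN was not called (0.15 ± 0.09, adjusted p = 0.37). IFIT3, which binds foreign RNA together with other IFIT proteins, had the smallest interaction of these (-0.72 ± 0.13, adjusted p = 0.026). Leaving out sgNeg2 replicate 2 ended the calls of LGALS3BP (adjusted p = 0.0668), SP100 (adjusted p = 0.177), GBP1 and DDX60. GBP1 and DDX60 also lost theirs without either IFN-treated sgNeg2 library, and DDX60 without sg1 replicate 2 (adjusted p of 0.0637 to 0.274 and 0.0575 to 0.244). CASP1 and IFIT3 lost theirs without any 1 of the sgNeg2 libraries of either state, either sg1 library without IFN, or replicate 1 of sg2 in either state (adjusted p of 0.0556 to 0.28 and 0.0542 to 0.393).

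The basal class was not made of antiviral genes alone. It also held MYC, the growth-promoting transcription factor, at 19.2 and 19.7 CPM in sgNeg2 and 31.4 to 33.2 CPM in knockout without IFN, and at 165 and 161 CPM against 131 to 157 CPM with IFN. The interaction of MYC was -0.92 ± 0.12 (adjusted p = 0.0033, and 0.0668 without sgNeg2 replicate 2). The chaperones HSPA8 (-0.41 ± 0.08) and HSPE1 (-0.89 ± 0.15), the splicing factor SRSF2 (-0.46 ± 0.09), the lipoprotein receptor LRP8 (-0.51 ± 0.10), the fatty acid carrier FABP5 (-0.72 ± 0.13) and TMC7, LYPD6B and PDSS1 completed it. Of the 5 genes with values here, each lost its call without any 1 of the sgNeg2 libraries of either state or either sg1 library without IFN (adjusted p of 0.0522 to 0.461 over the leave-outs that ended calls). HSPE1 and FABP5 have near-identical copies elsewhere in the genome, so their counts are less certain. Over the 17 genes the knockout effect ran from 0.32 to 2.31 without IFN and from -0.33 to 0.37 with IFN. For 15 of them the 95% interval of the effect with IFN stayed within 1.5-fold either way, and for DDX60 (0.03 to 0.70) and CASP1 (0.05 to 0.63) it did not. Of the 17 calls, 7 held under both other scalings.

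A second set of raised genes had a smaller log2 response although their level under IFN was higher in knockout. There were 7 such genes, called higher in both states, and each was further above sgNeg2 without IFN than with it. GBP5, an interferon-gamma-induced guanylate-binding protein (chr1:89258950-89272804), was at 0.129 and 0.0426 CPM in sgNeg2 without IFN and at 1.80, 1.96, 2.10 and 2.28 CPM in knockout. With IFN it reached 110 and 108 CPM in sgNeg2 and 360, 362, 365 and 354 CPM in knockout. No library overlapped between genotypes in either state. Its interaction was the farthest below 0 among the 28 genes, at -2.79 ± 0.34 (adjusted p = 0.0021), while its rise with IFN was 109 ± 0.835 CPM (SE) in sgNeg2 and 358 ± 2.25 CPM in knockout. The GBP5 value rests on a few counts in sgNeg2 without IFN: leaving out replicate 2 of that group gave -2.12 (adjusted p = 0.211).

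C1S, a serine protease of the classical complement pathway, was at 81.0 and 77.8 CPM in sgNeg2 and 184, 181, 203 and 202 CPM in knockout without IFN, and at 1010 and 999 CPM against 1200, 1210, 1220 and 1220 CPM with IFN. The knockout libraries were above sgNeg2 in both states. The knockout effect on C1S was 1.28 ± 0.07 without IFN and 0.27 ± 0.06 with IFN (adjusted p = 0.013), and the interaction was -1.01 ± 0.09 (adjusted p = 0.00039). CCL20, a chemokine that attracts CCR6-bearing lymphocytes, went from 102 and 104 CPM to 361 and 366 CPM in sgNeg2 and from 259 to 291 CPM to 565 to 625 CPM in knockout. Its interaction was -0.71 ± 0.09 (adjusted p = 0.003, and 0.104 without sgNeg2 replicate 2), and its rise was 260 ± 2.61 CPM in sgNeg2 and 321 ± 14.0 CPM in knockout. OAS1, which makes the antiviral messenger 2-5A, was at 0.215 and 0.170 CPM in sgNeg2 and 1.58 to 1.91 CPM in knockout without IFN, and at 3.03 and 3.35 CPM against 6.19 to 7.93 CPM with IFN (interaction -1.99 ± 0.33, adjusted p = 0.021). APOL1, a secreted trypanolytic protein, had an interaction of -1.44 ± 0.19 (adjusted p = 0.0033), GBP3 one of -1.10 ± 0.21 (adjusted p = 0.034), and the non-coding LINC01116 one of -2.12 ± 0.42 (adjusted p = 0.047). Leaving out any 1 sgNeg2 library of either state ended the call of OAS1 (adjusted p of 0.0516 to 0.274), and leaving out either one without IFN that of APOL1 (adjusted p = 0.0683 and 0.0668). GBP3 and LINC01116 kept their calls in 3 and 2 of the 12 leave-outs.

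Only 4 of the 28 raised genes were called lower in knockout under IFN. WARS, the tryptophanyl-tRNA synthetase and a classical interferon gamma target, was at 51.0 and 46.8 CPM in sgNeg2 and 44.2 to 48.0 CPM in knockout without IFN. With IFN it was at 1290 and 1300 CPM in sgNeg2 and at 876, 871, 896 and 886 CPM in knockout. The genotypes overlapped without IFN and were apart with it. The knockout effect on WARS was -0.08 ± 0.06 without and -0.55 ± 0.06 with IFN, for an interaction of -0.47 ± 0.08 (adjusted p = 0.026) that was not called under either other scaling, nor without any 1 of the sgNeg2 libraries of either state or either sg1 library without IFN (adjusted p of 0.0815 to 0.456). LGALS3, a galectin, was raised from 45.7 and 44.7 CPM to 54.6 and 54.8 CPM in sgNeg2 and went from 50.8 to 55.4 CPM down to 33.4 to 38.3 CPM in knockout (interaction -0.85 ± 0.11, adjusted p = 0.0033, and 0.104 without sgNeg2 replicate 2). HNRNPM, a splicing factor, and NPIPB15, a member of a family of near-identical copies whose counts are uncertain, were called higher without IFN and lower with it. On the linear scale the rise in CPM with IFN was larger in knockout for 8 of the 28 genes and smaller for 20.

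**Figure D2:**
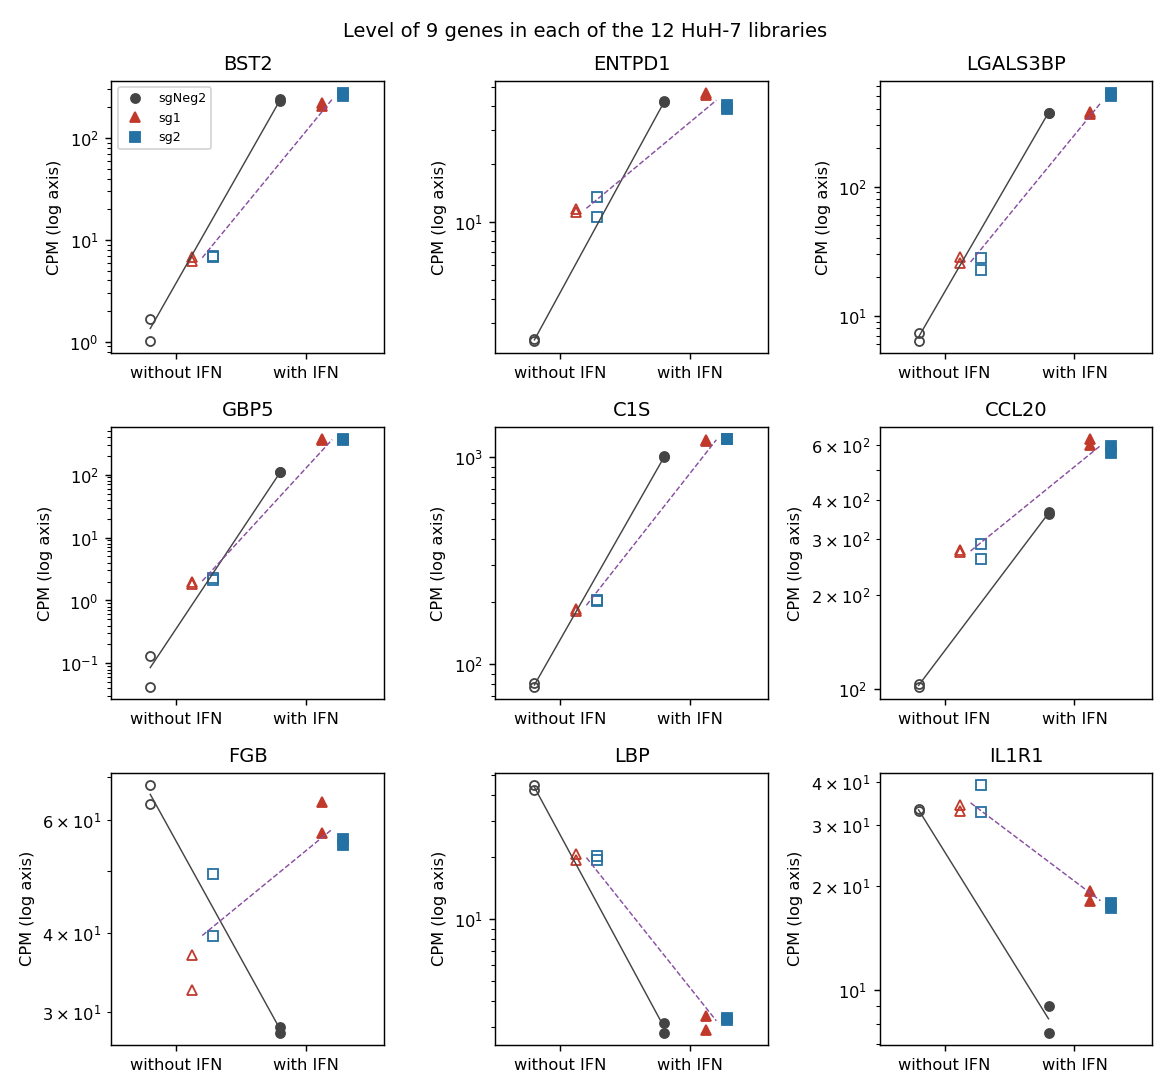
Level in CPM (log axis) of 9 genes in each of the 12 libraries, without IFN (open symbols) and with IFN (filled), for sgNeg2 (circles), sg1 (triangles) and sg2 (squares). Lines join the means of sgNeg2 (solid) and of the 4 knockout libraries (dashed). BST2 and ENTPD1 start apart and meet, GBP5, C1S and CCL20 stay above sgNeg2, FGB crosses, LBP starts lower and meets, and IL1R1 starts together and parts.

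Among genes lowered by IFN the difference lay mostly in the treated cells. Of the 30 genes with a smaller fall, 27 were called higher in knockout under IFN and 0 lower, and without IFN 7 were called higher and 8 lower. The 3 fibrinogen chain genes, which liver cells secrete together as the clot precursor, moved alike and reversed their order. FGA was at 250 and 254 CPM in sgNeg2 and 105, 104, 137 and 138 CPM in knockout without IFN. With IFN it was at 90.6 and 87.2 CPM in sgNeg2 and 141, 144, 132 and 128 CPM in knockout. FGB went from 68.1 and 63.6 CPM to 28.5 and 27.9 CPM in sgNeg2, and from 36.9, 32.5, 39.5 and 49.4 CPM to 64.0, 57.3, 56.1 and 54.9 CPM in knockout. All knockout libraries lay below sgNeg2 without IFN and above it with IFN, for both genes. FGG was at 160 and 168 CPM against 83.4 to 104 CPM without IFN, and at 101 and 99.9 CPM against 119 to 141 CPM with IFN. The interactions were 1.68 ± 0.16 for FGA (adjusted p = 0.00047), 1.78 ± 0.18 for FGB (adjusted p = 0.00062) and 1.21 ± 0.14 for FGG (adjusted p = 0.0012). In knockout cells FGB and FGG were called higher with IFN than without, and FGA was not called in either direction (0.17, adjusted p = 0.1). The response differed between guides, with the sg2 interaction below that of sg1 by 0.53 for FGA, 0.49 for FGB and 0.42 for FGG.

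The 3 genes are neighbours on chromosome 4 (FGB at chr4:154562956-154571086, FGA at chr4:154583126-154590766 and FGG at chr4:154604134-154612967, hg38), and since they moved together their upstream 250 bases are shown with the same marks (RefSeq, GRCh38.p14, gene strand).
FGB (chr4:154562730-154562979, plus strand): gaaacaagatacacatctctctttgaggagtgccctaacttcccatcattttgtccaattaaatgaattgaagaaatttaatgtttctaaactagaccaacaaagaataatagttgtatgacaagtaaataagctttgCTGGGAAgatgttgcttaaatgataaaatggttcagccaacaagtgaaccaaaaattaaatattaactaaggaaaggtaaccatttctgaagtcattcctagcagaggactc
FGA (chr4:154590743-154590992, minus strand): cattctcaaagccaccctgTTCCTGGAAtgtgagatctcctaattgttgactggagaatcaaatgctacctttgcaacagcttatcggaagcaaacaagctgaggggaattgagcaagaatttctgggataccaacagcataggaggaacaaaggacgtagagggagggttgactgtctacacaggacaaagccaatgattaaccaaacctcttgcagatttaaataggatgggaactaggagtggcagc
FGG (chr4:154612657-154612906, minus strand): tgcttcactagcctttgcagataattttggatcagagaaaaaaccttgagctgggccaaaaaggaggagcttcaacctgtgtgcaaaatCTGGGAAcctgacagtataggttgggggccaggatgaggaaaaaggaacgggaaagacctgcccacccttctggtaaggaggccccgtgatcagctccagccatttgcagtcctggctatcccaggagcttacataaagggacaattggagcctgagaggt
These windows end at the RefSeq starts. By the GENCODE positions above, the FGG window lies inside its gene, and those of FGA and FGB run a short way into theirs. CTGGGAA was found once in FGB and once in FGG, and TTCNNNGAA once in FGA. Over the 24 lowered genes with an entry, CTGGGAA was present in 4 (16.7%: FGB, FGG, MYCN and LDLRAD4) and TTCNNNGAA in 2 (8.33%), against 9.74% and 5.85% of the tested genes.

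Other secreted liver proteins took both routes. LBP, the lipopolysaccharide-binding protein of the acute phase, was a basal case: 44.7 and 42.5 CPM in sgNeg2 against 20.8, 19.3, 19.4 and 20.2 CPM in knockout without IFN, and 3.15 and 2.83 CPM against 2.92 to 3.42 CPM with IFN. Its libraries were apart without IFN and overlapped with it, and the interaction was 1.24 ± 0.14 (adjusted p = 0.0012). SAA1, an acute phase apolipoprotein, was close without IFN (57.7 and 65.8 CPM in sgNeg2, 66.2 to 76.2 CPM in knockout, not called) and far apart with IFN (27.5 and 24.8 CPM against 53 to 71.6 CPM). The interaction of SAA1 was 1.05 ± 0.18 (adjusted p = 0.021). C8B, a subunit of the complement attack complex, had an interaction of 1.32 ± 0.23 (adjusted p = 0.025) and APOH, a phospholipid-binding plasma protein, 0.73 ± 0.13 (adjusted p = 0.026), both with a difference only under IFN. Leaving out any 1 sgNeg2 library of either state ended the calls of SAA1 (adjusted p of 0.0663 to 0.129), C8B (0.0917 to 0.147) and APOH (0.054 to 0.166), and APOH also lost its call without replicate 1 of sg2 in either state. BMF, a pro-death BH3-only protein, and the linker histone HIST1H1C crossed in the manner of the fibrinogens, with interactions of 1.33 ± 0.13 (adjusted p = 0.00053) and 0.71 ± 0.10 (adjusted p = 0.0038). HIST1H1C lost its call without IFN-treated sgNeg2 replicate 1 (adjusted p = 0.0524), and it belongs to the histone genes, whose share of counts was 0.827 to 1% without IFN and 0.0329 to 0.0472% with IFN. The part of this in its value was not tested.

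A further 7 lowered genes were higher in knockout in both states, and more so under IFN. DKK1, a secreted inhibitor of Wnt signalling, was at 32.7 and 33.9 CPM in sgNeg2 and 60.9, 60.0, 59.0 and 53.5 CPM in knockout without IFN. With IFN it was at 4.75 and 6.11 CPM in sgNeg2 and 26.8, 27.1, 30.3 and 29.5 CPM in knockout. No library overlapped between genotypes in either state, and the interaction of DKK1 was 1.58 ± 0.15 (adjusted p = 0.00044). AKR1C1, an aldo-keto reductase that inactivates progesterone, was at 69.1 and 72.1 CPM against 100 to 116 CPM without IFN and at 28.3 and 34.3 CPM against 113 to 134 CPM with IFN (interaction 1.38 ± 0.15, adjusted p = 0.00064). Its neighbour AKR1C2 ran the same way (1.46 ± 0.25, adjusted p = 0.022), and since the pair is nearly identical in sequence the authors' counting could have split reads between them. CYBRD1, a ferric reductase of iron uptake, had an interaction of 1.62 ± 0.23 (adjusted p = 0.0054) and NYNRIN one of 1.63 ± 0.20 (adjusted p = 0.0021). LDLRAD4, an inhibitor of TGF-beta signalling, had one of 1.19 ± 0.23 (adjusted p = 0.044) and FRMD4A, a scaffold of epithelial polarity, one of 0.82 ± 0.14 (adjusted p = 0.022). FRMD4A lost its call without any 1 of the sgNeg2 libraries of either state (adjusted p of 0.0668 to 0.184), AKR1C2 without 3 of those 4 (0.0862 to 0.14), CYBRD1 without sgNeg2 replicate 1 or IFN-treated sgNeg2 replicate 2 (0.058 and 0.0582), and LDLRAD4 in 8 of the 12 leave-outs (0.0575 to 0.203).

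The 15 lowered genes with a difference only under IFN included signalling genes. IL1R1, the receptor that passes on interleukin-1, was at 33.4 and 33.0 CPM in sgNeg2 and 32.9, 34.3, 32.8 and 39.2 CPM in knockout without IFN, and at 7.54 and 8.98 CPM against 19.3, 18.1, 17.9 and 17.3 CPM with IFN. The groups overlapped without IFN and were apart with it, and the interaction was 1.07 ± 0.14 (adjusted p = 0.0036). SGK1, a kinase induced by glucocorticoids, was lowered slightly in sgNeg2 (496 and 493 CPM to 436 and 434 CPM) and raised in knockout (443 to 469 CPM to 546 to 607 CPM), for an interaction of 0.53 ± 0.08 (adjusted p = 0.015). GPR37, an orphan receptor, also rose in knockout and fell in sgNeg2 (1.02 ± 0.15, adjusted p = 0.0064), as did DUOXA2, the maturation factor of a hydrogen peroxide-producing oxidase (1.54 ± 0.26, adjusted p = 0.021). MYCN, a MYC relative, was higher in knockout under IFN (65.1 and 70.3 CPM against 86.2 to 110 CPM), with an interaction of 0.78 ± 0.14 (adjusted p = 0.026), opposite in sign to that of MYC. In all, 9 of the 30 lowered genes were called raised by IFN in knockout, and 15 were called lowered. SGK1 and DUOXA2 lost their calls without any 1 of the sgNeg2 libraries of either state (adjusted p of 0.0617 to 0.108 and 0.0537 to 0.167), as did MYCN, also without replicate 1 of sg2 in either state (0.0526 to 0.157), while GPR37 did so without 3 of those 4 (0.0534 to 0.0721). EHMT2, an H3K9 methyltransferase, was in the basal class with LBP and TP53INP2 (6.37 and 8.39 CPM in sgNeg2 against 0.558 to 1.14 CPM in knockout without IFN, interaction 3.36 ± 0.41, adjusted p = 0.002). It lies at 28 to 34 Mb of chromosome 6, where 105 tested genes had a median of 2.7 CPM in IFN-treated sgNeg2 against 22 CPM on the rest of the chromosome, and the part of this in its value was not tested. Of the 30 calls, 29 held under both other scalings, against 13 of the 28 raised genes. Both scalings moved the median interaction over all genes upward, from -0.03 to 0.02 and 0.07. That shift favours interactions above 0, as in the lowered genes, over those below 0, as in the raised genes. These counts therefore do not compare how firm the lowered and raised calls are.

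**Figure D3:**
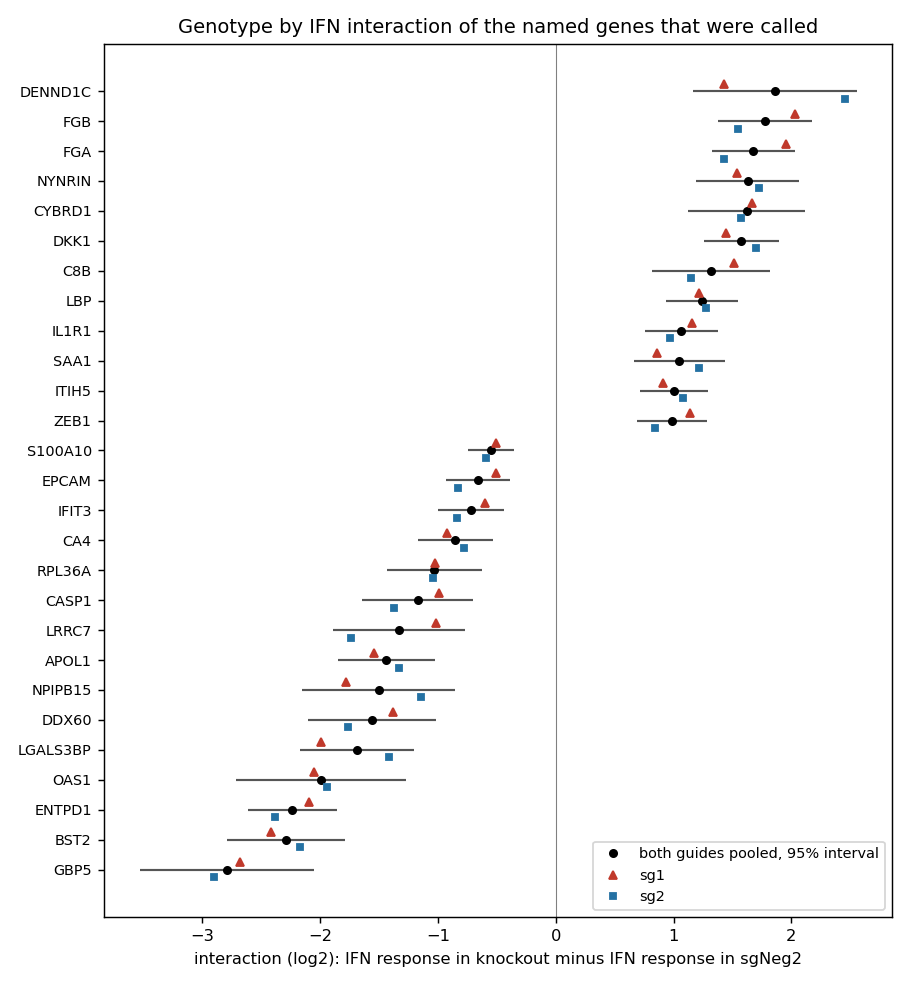
Interaction (log2) of 27 of the 28 called genes among the 47 named by rule, with its 95% interval (line) and the value with sg1 (triangle) and sg2 (square) taken apart. Both guides lie on the same side of 0 for every gene drawn, which the naming rule required of the largest and class genes.

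Larger responses in knockout were fewer. S100A10, the annexin A2 partner, was at 329 and 355 CPM in sgNeg2 and 320 to 353 CPM in knockout without IFN, and at 264 and 260 CPM against 178, 170, 172 and 170 CPM with IFN. The groups overlapped without IFN only, and the interaction was -0.55 ± 0.09 (adjusted p = 0.018). EPCAM, an epithelial adhesion protein (-0.66 ± 0.13, adjusted p = 0.035), CA4, a carbonic anhydrase (-0.85 ± 0.15, adjusted p = 0.024), and SVIL, an actin-linked protein (-0.48 ± 0.10, adjusted p = 0.049), were called higher in knockout without IFN and not with it. KCNQ1OT1, an antisense non-coding RNA, was at 886 and 896 CPM against 1000 to 1090 CPM without IFN and at 3.48 and 3.26 CPM against 2.08 to 2.24 CPM with IFN (-0.90 ± 0.10, adjusted p = 0.0012). It overlaps a gene on the other strand, and reads of the pair cannot be told apart without a strand setting. RPL36A (-1.03 ± 0.19, adjusted p = 0.026), a ribosomal protein gene with many processed copies, is uncertain. Calls of CA4, EPCAM, S100A10 and RPL36A ended without any 1 of the sgNeg2 libraries of either state or either sg1 library without IFN (adjusted p of up to 0.274, 0.334, 0.214 and 0.331), and SVIL kept its call in 3 of 12 leave-outs. The 3 raised genes with a larger response were ITIH5, ZEB1 and DENND1C. ITIH5, a hyaluronan-binding protein, was at 14.9 and 15 CPM against 23.9 to 25.8 CPM without IFN and at 19.9 and 18.5 CPM against 57.8 to 69.9 CPM with IFN (1.00 ± 0.13, adjusted p = 0.0033). The zinc-finger repressor ZEB1 stayed lower in knockout but by less under IFN: 36.4 and 40.4 CPM against 13.1 to 16.1 CPM, then 59.0 and 55.4 CPM against 39.1 to 44.8 CPM (0.99 ± 0.14, adjusted p = 0.0051), with adjusted p-values of 0.0538 and 0.0608 without replicate 2 of sgNeg2 in either state.

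Genes without a called IFN response in sgNeg2 responded in knockout. JAG1, a Notch ligand, was at 320 and 317 CPM in sgNeg2 without IFN and 316 and 328 CPM with it, while in knockout it went from 190 to 198 CPM to 134 to 144 CPM. The interaction of JAG1 was -0.50 ± 0.08 (adjusted p = 0.018). DDC, which makes dopamine and serotonin, stayed at 55 to 56.9 CPM in sgNeg2 and fell from 54.4 to 57.2 CPM to 32.9 to 38.4 CPM in knockout (-0.65 ± 0.11, adjusted p = 0.02). TLX1, a homeobox factor, rose in knockout from 2.28 to 2.75 CPM to 6.59 to 7.95 CPM (interaction adjusted p = 0.021). The other members, NAT8, STX3, PKD1L1, CCDC84, the pseudogene PDXDC2P and the readthrough STAG3L5P-PVRIG2P-PILRB, had interactions below 0. JAG1, DDC and TLX1 lost their calls without any 1 of the sgNeg2 libraries of either state, and JAG1 and DDC also without either sg1 library without IFN (adjusted p of 0.0843 to 0.331, 0.0889 to 0.318 and 0.0799 to 0.146).

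Many canonical interferon genes showed no called interaction. CXCL10, a T cell attractant, was higher in knockout in both states, by 1.00 on the log2 scale without IFN (3.92 and 3.70 CPM against 6.92 to 8.56 CPM) and 0.68 with IFN (342 and 339 CPM against 514 to 571 CPM), and its interaction was -0.32 ± 0.14 (95% interval -0.61 to -0.03, adjusted p = 0.33, and 0.0177 using only sg2). CD274, which encodes PD-L1, was at 0.215 and 0.128 CPM against 0.574 to 1.09 CPM and then 9.84 and 10.1 CPM against 13.2 to 15.1 CPM. The interaction of CD274 (-1.81 ± 0.40) missed the threshold (adjusted p = 0.069) and passed it without sg1 replicate 1 (adjusted p = 0.0421), over a range of 0.0097 to 0.518 in the alternatives. CD274 was also called by edgeR with guides as groups (adjusted p = 0.0097) and with the GC trend removed (adjusted p = 0.023). It was called using only sg1 (adjusted p = 0.0251) or only sg2 (adjusted p = 0.0105), and stayed uncalled in 18 of 23 alternatives. IDO1, which consumes tryptophan, had no counts in sgNeg2 without IFN. With IFN it was at 1.70 and 1.92 CPM in sgNeg2 and 21.2 to 23.8 CPM in knockout, a knockout effect of 3.65, and its interaction had an SE of 4.03. MX1 (-0.74 ± 0.21, adjusted p = 0.15), IRF1 (-0.47 ± 0.13, adjusted p = 0.14), B2M (-0.62 ± 0.17, adjusted p = 0.14) and NLRC5 (-0.80 ± 0.22, adjusted p = 0.14) were not called with the guides pooled. With guides as groups each was called by edgeR, with an adjusted p of 0.0344 for MX1, 0.00134 for IRF1, 0.000242 for B2M and 0.00536 for NLRC5, and each was called using only sg1 and with the GC trend removed. Using only sg2, edgeR called IRF1 (adjusted p = 0.0295) and B2M (adjusted p = 0.00216) but not MX1 and NLRC5. In the edgeR fit with guides as groups, MX1 was called with sg2 (adjusted p = 0.0206) and not with sg1 (adjusted p = 0.107). B2M was also called without IFN-treated sg1 replicate 1 (adjusted p = 0.0469) and NLRC5 without sg2 replicate 2 (adjusted p = 0.0305). In all, 9 named genes that were not called with the guides pooled were called in at least 1 alternative, CXCL11 and IFIH1 among them. ISG15 (0.16 ± 0.33) and IFIT1 (-0.23 ± 0.21) changed sign between alternatives.

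The lists are described by their counts and medians beside those of all genes tested. Of these, 0.298% were called lower and 0.207% higher. At an unadjusted p below 0.05, 8.4% were lower and 4.46% higher, and the median was -0.03. These shares, and list counts given without a fit, are for edgeR with the guides pooled. Over all 16448 genes DESeq2 called 229 higher and 180 lower, and edgeR with guides as groups 413 and 1028. With the GC trend removed, 432 of 15312 were called higher and 487 lower. Of 55 type I interferon-stimulated genes, 6 were called lower and 0 higher (BST2, DDX60, IFIT3, LGALS3BP, OAS1 and SP100), 22 were lower (40%) and 0 higher unadjusted, and the median was -0.23. Of 38 interferon gamma response genes, 6 were called lower (APOL1, CASP1, GBP1, GBP3, GBP5 and WARS), 18 were lower (47.4%) and 2 higher unadjusted, and the median was -0.42. By edgeR with the guides pooled, RLE scaling called 6 type I and 5 gamma genes lower (33 over all genes). Leaving out histone and small RNA genes gave 5 and 3 (17 over all genes). DESeq2 called 7 and 8 lower, edgeR with guides as groups 16 and 15, and with the GC trend removed 13 and 14. Higher calls were 0 in these fits, except 1 gamma gene with the GC trend removed. The type I and gamma lists had 22 and 17 genes called higher in knockout without IFN (6.95% of all genes were), and 14 and 14 with IFN (7.11% of all genes). Of 18 class I presentation genes, 0 were called by edgeR with the guides pooled, 1 by DESeq2 (NLRC5, -0.74, adjusted p = 0.0429), and 5 lower by edgeR with guides as groups. Unadjusted, 7 of the 18 were lower (among them TAP1, TAP2, B2M, HLA-C and NLRC5), and the median was -0.26. TAP1, TAP2 and HLA-C are among 8 of the 18 genes that lie at 28 to 34 Mb of chromosome 6, the region of low level named above, and the part of this in their values was not tested. TAP1 was at 0 and 0.128 CPM in sgNeg2 without IFN.

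The medians of the other lists lay on both sides of 0. Their calls in each fit stand beside the counts over all genes given above for that fit. Feedback inhibitors had a median of 0.18, with 10 of 16 above 0, 0 called by edgeR with the guides pooled, 3 higher and 1 lower unadjusted, and 2 called higher by DESeq2. With guides as groups, and with the GC trend removed, 2 were called higher and 1 lower. Receptors, kinases and transcription factors gave 0 calls of 17 by edgeR with the guides pooled and by DESeq2, with 1 higher and 3 lower unadjusted, and a median of -0.05 that turned positive under both other scalings. With guides as groups 1 was called higher and 4 lower, and with the GC trend removed 2 and 2. Among 29 chemokines and cytokines 1 was called by edgeR with the guides pooled (CCL20), and the median, -0.04, turned positive under both other scalings. DESeq2 called 2 higher and 1 lower. With guides as groups 4 were called higher and 4 lower, and with the GC trend removed 4 and 2. The NF-kappaB factors and feedback genes had a median of 0.24. Of these 19, 0 were called by edgeR with the guides pooled, where 6 were higher and 0 lower unadjusted (SOD2, TNFAIP3, NFKBIA, NFKB2, NFKBIE and RELB). By DESeq2 2 of the 19 were called higher, and by edgeR 7 with guides as groups and 3 with the GC trend removed. Hepatocyte secreted products had 4 of 42 called higher by edgeR with the guides pooled (APOH, FGA, FGB and FGG), 18 higher and 2 lower unadjusted and a median of 0.29. DESeq2 called 9 of them higher and 0 lower. With guides as groups 19 were called higher and 1 lower, and with the GC trend removed 13 and 1. Matrix and mesenchymal genes had 1 of 25 called by edgeR with the guides pooled (ZEB1), 11 higher and 1 lower unadjusted and a median of 0.37. DESeq2 called 7 of them higher, edgeR with guides as groups 8, and edgeR with the GC trend removed 9, each with 0 lower. The 57 cytosolic ribosomal protein genes had 0 calls by edgeR with the guides pooled and 1 by DESeq2, 1 higher and 1 lower unadjusted, and a median of 0.14. With guides as groups 6 were called higher, and with the GC trend removed 2. Among 60 histone genes 1 was called (HIST1H1C) and the median was 0.46. Across genes the interaction rose with GC content (Spearman 0.33 over 15312 genes, which are not independent replicates), and 81 of the 83 calls held after that trend was removed. For the knockout effect the Spearman value with GC content was -0.273 without IFN and 0.0633 with IFN. The cause of this difference was not tested.

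**Figure D4:**
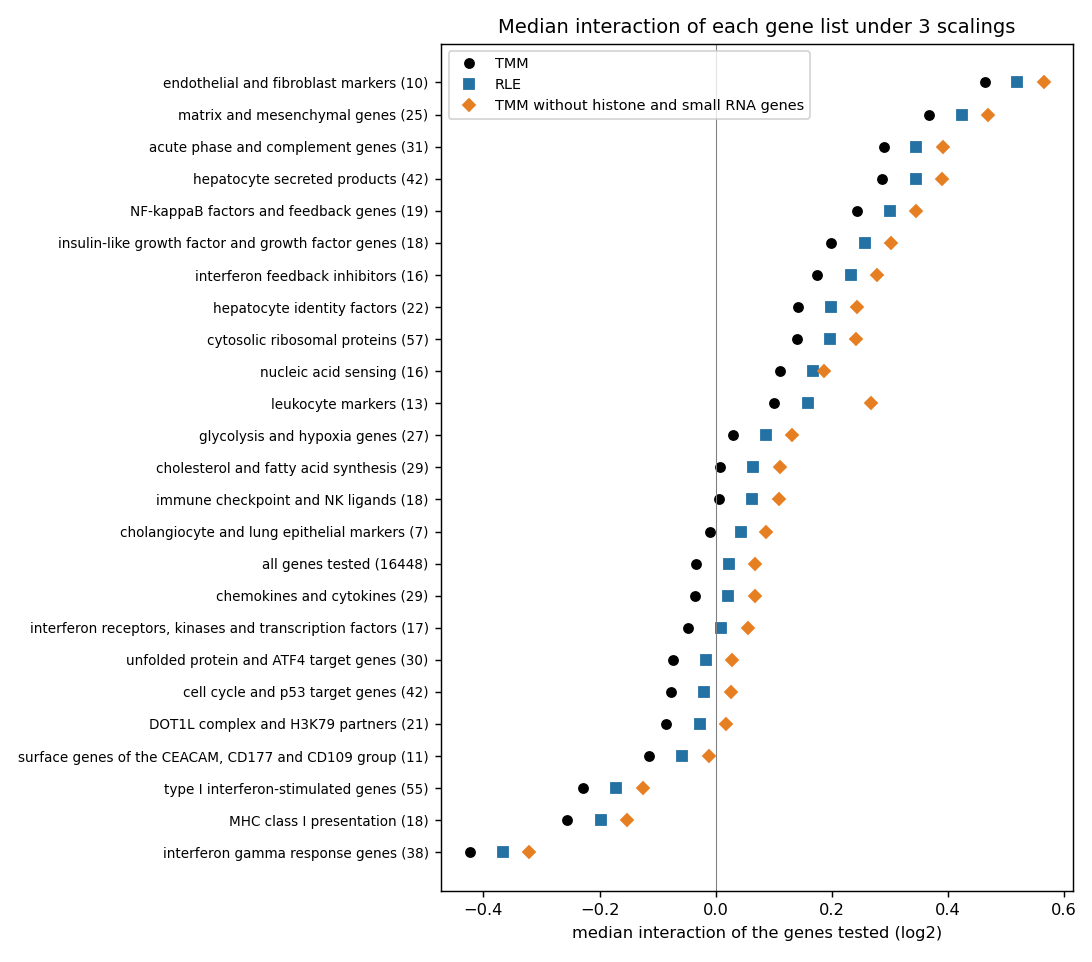
Median interaction (log2) of the tested genes of each of 24 lists and of all genes, under 3 scalings (TMM, RLE, and TMM without histone and small RNA genes), with the number tested in brackets. The interferon gamma, class I and type I lists lie below 0 under each scaling, and the lists of secreted, acute phase and matrix genes above it.

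With guides as separate groups, the response of sg2 differed from that of sg1 for 5039 genes (30.6%), 2509 higher and 2530 lower. Of the 83 genes, 11 differed between guides (FGA, FGB, FGG, LGALS3BP, GBP1, GBP3, MYC, MYCN, EPCAM, SAA1 and PDXDC2P). The 83 were called in a fit that counts a difference between guides as spread, so this count is not comparable with the share over all genes. GBP1 had an interaction of -0.74 with sg1 and -1.18 with sg2, and LGALS3BP one of -1.99 and -1.42. For BST2 the values were -2.42 and -2.17, for ENTPD1 -2.10 and -2.38, for C1S -0.94 and -1.07 and for DKK1 1.45 and 1.70. Treating guides as groups removes their difference from the spread and gave 1441 calls, all 83 among them. In bulk RNA, a change in the share of responding cells and a change in RNA per cell cannot be told apart.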

How the data were processed

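RNA was extracted with the RNeasy Mini Kit and made into libraries with the VAHTS Universal V6 kit, per the labels' protocols. The deposited values are raw counts per gene symbol for each library. Trim Galore, HISAT2 2.2.1, SAMtools 1.9 and DESeq2 1.36.0 and the build hg38 are named in the submitters' processing notes; the sources used here name no counter, strand setting or annotation. The counts of the 12 libraries were analysed as deposited in R 4.3.3 with edgeR 4.0.16: filterByExpr on the 4 settings (minimum count 10, total 15) kept 16448 of 26457 symbols, libraries were TMM-scaled, and robust quasi-likelihood F tests were adjusted by Benjamini and Hochberg over all genes tested. The threshold for a call was an adjusted p of 0.05. Values after ± are SEs from the F statistic. Levels (CPM) were computed from the counts with edgeR on TMM-scaled library sizes. Both guides were pooled as knockout.

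A response is smaller when the interaction and a called IFN response in sgNeg2 have opposite signs. Named genes are a panel of 22, the 6 largest positive and negative interactions, the largest of each class and the leading called genes of lists. The largest and class genes needed a mean of at least 5 CPM and the same sign with each guide. Other called genes were named after their values were seen. The members and the 24 lists were chosen with earlier results of these data known. Alternatives were DESeq2 1.42.0, other scalings and filters, each guide, thinned libraries, a replicate block, each library left out, and, added after seeing the data, removal of a GC trend. A library left alone in its arm is assumed to vary like the others. Tests were tested on simulated data. Gene positions are from GENCODE on hg38 and upstream sequences from RefSeq (GRCh38.p14). Values of some genes that the rule names are not reported here.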

Additional observations from a re-analysis of the deposited data

Results flagged for a closer look

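The IFN interaction differed between the guides at 5 of the named genes, by the test of the difference in the fit with guides as groups (sg2 minus sg1, log2, with SE and edgeR adjusted p). It was -0.485 ± 0.139 for FGB (adjusted p = 0.0181), -0.528 ± 0.0666 for FGA (adjusted p = 0.000416), 0.571 ± 0.112 for LGALS3BP (adjusted p = 0.00269), 0.355 ± 0.116 for SAA1 (adjusted p = 0.0328) and -0.32 ± 0.0808 for EPCAM (adjusted p = 0.00989). Each kept its sign with either guide, which the naming rule required of these genes.

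Single libraries stood far from the other 3 of their setting and genotype in 4 of 94 groups tested, and chance gives about 1 in 20 groups by this measure, so 4 is no excess. CXCL9 was at 0.167 CPM in sg1 without IFN replicate 2, against 0.319 to 0.328 CPM in the other knockout libraries. IDO1 was at 0.041 CPM in sg1 without IFN replicate 1 and at 0 in the others, where any count above 0 stands apart by construction. MX1 was at 9.49 CPM in sg2 without IFN replicate 2, against 6.79 to 7.17 CPM, and S100A10 at 353 CPM in the same library, against 320 to 324 CPM.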

How the results depend on the processing

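The 83 interaction calls became 41 with a 2-fold minimum, 409 with DESeq2, 1441 with guides as groups, 2641 using only sg1, 2668 using only sg2 and, added after seeing the data, 919 with the GC trend removed. Leaving out 1 library gave 19 to 176. RLE scaling gave 75 and TMM without histone and small RNA genes 70.

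The 17 raised genes of the basal class and the 11 raised genes with a different level under IFN became 11 and 17 with unadjusted p-values for the knockout effects, 7 and 5 without histone and small RNA genes, 69 and 26 with DESeq2, 306 and 268 with guides as groups, 308 and 1119 using only sg1, 202 and 432 using only sg2, and 193 and 107 with the GC trend removed. RLE scaling gave 10 basal genes. The 11 became 7 by the share of the interaction without IFN, 6 with a minimum of 5 CPM and 7 with the IFN libraries thinned. Leaving out 1 library gave 2 to 51 and 1 to 19. The 3 lowered basal genes and 27 lowered genes with a different level became 48 and 119 with DESeq2, 73 and 157 with guides as groups, 205 and 372 using only sg1, 59 and 160 using only sg2, and 111 and 215 with the GC trend removed. RLE scaling gave 6 lowered basal genes and the scaling without histone and small RNA genes 5. Leaving out 1 library gave 2 to 11 and 9 to 39. The 5039 guide differences ranged from 2785 to 7400.

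Same-numbered libraries did not deviate together (15 correlations of -0.0611 to 0.0431), so the numbers do not pair them. With the replicate block there were 53 calls, 10 raised basal genes and 7 with a different level under IFN. In all, 9 values turned sign, none of them called: DOT1L -0.16 with sg1 alone, -0.01157 without IFN-treated sg2 replicate 1, -0.009794 without replicate 2 and -0.10 without the GC trend; ISG15 -0.29 with sg1 alone, -0.003072 without sg2 replicate 2 and -0.0132 without the GC trend; CXCL9 0.02531 without sgNeg2 replicate 1; and IFIT1 0.02368 with sg1 alone. Over the leave-outs DOT1L ran from -0.01157 to 0.2081, ISG15 from -0.003072 to 0.3914 and CXCL9 from -5.903 to 0.02531. All 28 called named genes kept their direction in every alternative run, and 9 kept the call. The cause of these changes was not tested. With 2 sgNeg2 libraries per state and a median SE of 0.209, small interactions were not detectable.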
